A study of Mus musculus with 14 samples.

Results

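Chemokines are small secreted or membrane-bound proteins that steer migrating cells, and their receptors are mostly G protein-coupled receptors on leukocytes. In the spleen, stromal cells, endothelium and macrophages supply chemokines that place B cells, T cells and myeloid cells in their compartments, and inflammatory chemokines are induced within hours of danger signals. Most ligands are therefore made by one set of cells and read by another, while the atypical receptors (Ackr genes) bind chemokines without the usual G protein signal and take them out of the surroundings. The chemokine and chemokine receptor genes were compared between mouse spleen cells enriched for follicular dendritic cells (FDC) and spleen cells depleted of them. FDC are stromal cells of the B cell follicle that keep antigen on their surface. Members were all probe sets whose only gene symbol was a systematic chemokine or chemokine receptor name, apart from Cxcl13 and Cxcr5. This gave 64 probe sets of 47 genes, 29 ligands and 18 receptors, out of 36899 probe sets and 15964 named genes. Another 4 probe sets carried several symbols, one or more of them of this kind, and were named after none. Genes such as Pf4 and Ppbp, which encode chemokines under other names, are no members.

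RNA was hybridised to 14 one-colour arrays, which belong to the array sets A, B and C. Sets A and C held FDC-D samples 1 and 2 (depleted) and FDC-E samples 1, 2 and 3 (enriched), and set B held FDC-D 1 and 2 and FDC-E 2 and 3. The labels describe both fractions as freshly taken primary splenocytes. The sources used here do not give strain, age, immunisation, number of animals or how cells were separated. They also do not say whether each sample is its own animal, and a p-value here reflects sample-to-sample spread that may be technical only. Values are linear intensities as deposited, and fold changes are enriched over depleted on a log2 scale after adding a pseudocount, so that changes of dim genes come out too small. A gene rose or fell where its limma p-value, adjusted over all probe sets of its array set, was under 0.05. In bulk RNA, fewer cells of a type and less RNA per cell cannot be told apart.

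The enriched fraction held more than FDC. On set A the summed intensity of 7 FDC markers was 4242 to 5011 on depleted and 20054 to 24417 on enriched arrays, and 6 of the 7 rose. Fcgr2b did not pass. Vcam1, at a mean of 1744 on depleted and 2954 on enriched arrays, counts both here and among the macrophage markers. All 10 endothelial markers rose, and the 8 on set A summed to 1560.4 to 1602 against 16770 to 18894. Of 8 tested reticular fibroblast and mural markers 7 rose, the 7 on set A summing to 2067 to 2070.4 against 7403 to 8386. Of 11 macrophage markers 10 rose, from sums of 9638 to 11450 up to 21617 to 25641 for the 10 on set A, and of 10 immediate early and dissociation genes 9 rose, from 31456 to 34381 up to 55691 to 58146. All 5 tested platelet and megakaryocyte markers rose, and the 3 on set A summed to 1085.8 to 1157 on depleted and 1855 to 2015 on enriched arrays. Of those 3, Vwf went from a mean of 100.8 to 579, Gp9 from 863 to 1069 and Gp1bb from 158 to 266. The part of endothelium in the Vwf values was not tested. All 7 T cell, 6 B cell and 4 NK cell markers tested fell. On set A the sums went from 5460 to 5603 down to 1460 to 1603 for T cells, from 18515 to 18576 down to 4663 to 6542 for 5 B cell genes and from 2468 to 2848 down to 419 to 578 for 3 NK cell genes. The T cell sum lacks a Cd8b1 value on enriched sample 2. Of 6 neutrophil markers 5 fell, with sums of 6199 to 6927 against 2775 to 3464. Other lists were mixed. Of 3 monocyte markers tested 1 rose and none fell, and of 5 dendritic cell markers 1 rose and 2 fell. Of 3 plasma cell markers 1 rose and 1 fell, and of 2 erythroid markers 1 rose. No listed marker was at 0. A filter on dim probe sets bears on these marker counts. Cdh5, Cldn5, Emcn, Tek, Tie1, Coch, Marco and Prdm1 passed it through enriched arrays alone. So did Acta2, Col3a1, Dcn, Pdgfrb, Ppbp, Vwf and Gp1bb. Cd3d, Cd3g, Cd8b1, Il7r, Gzma, Klra7 and Ltf passed it through depleted arrays alone. Among all 12273 named genes tested, 19.2% rose and 14.5% fell. The endothelial Eng rose 13.1-fold and the B cell receptor component Cd79a fell 3.54-fold. Of the immediate early and dissociation genes, Hspa1a rose 12.4-fold and Hspa1b 11.4-fold. The other genes of that list that rose did so by at most 2.22-fold (Egr1), and Junb did not pass. The part of any of these cell types, or of a dissociation response, in the chemokine results below was not tested.

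Of the 47 genes, 37 had a probe set above the filter on dim probe sets. Among the 23 tested ligand genes there were 11 that rose and 3 that fell, with 9 not passing. Among the 14 tested receptor genes 1 rose, 4 fell and 9 missed the threshold. Over all 12273 named genes tested, 19.2% rose and 14.5% fell. The ligands' share of rises thus stood above that of all genes, and their share of falls near it. For receptors the share of falls was higher and that of rises lower than among all genes. These receptor shares rest on 4 falls and 1 rise among 14 genes, too few to set receptors apart from the background. Whether any of these shares differs from that of all genes was not tested. The background share of falls on set A also depends on scaling, as given below. The median log2 fold change was 0.08 for ligands and -0.02 for receptors, against 0.02 for all genes tested. The filter bears on these counts, because Ccl2, Cxcl10, Cxcl5 and Ackr3 passed it through enriched arrays alone and Ccl9 through depleted arrays alone. The same holds for 2 further probe sets of Cxcl12 and 1 of Ackr2, which passed through enriched arrays alone. With no filter, so that every member was counted, 12 of 29 ligands rose and 2 fell, and 1 of 18 receptors rose and 6 fell, where 15.9% and 11.7% of all genes did. Every enriched array lay above every depleted array for 11 tested ligands and 3 tested receptors, and below for 5 and 5, an arrangement that 34% and 27.4% of all genes tested showed in those directions. On set A, where 46 of the 64 member probe sets lie, 1823 of all probe sets tested (23.1%) rose and 1414 (17.9%) fell. On set B 19.4% rose and 17% fell, and the shares for set C were 9.47% and 8.67%. The split of set A turned to 1370 rises and 2166 falls with scaling to the median array and to 1434 and 2041 under quantile normalization. The first of these scalings shifted the median log2 fold change of set A by -0.11, and the member calls below are on the deposited scale.

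**Figure D1:**
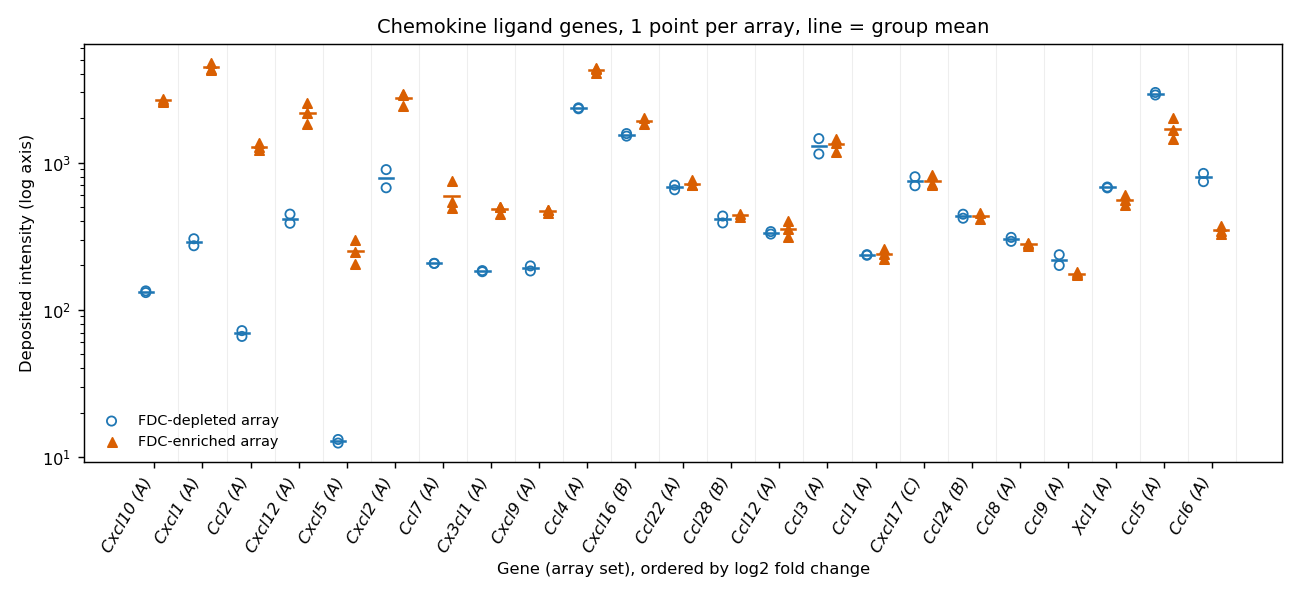
Deposited intensity (log axis) of the 23 tested chemokine ligand genes at the probe set that stands for each, with 1 point per array, open circles for FDC-depleted and triangles for FDC-enriched arrays, and a short line at the group mean. The 11 genes at the left have every enriched array above every depleted array, and Ccl8, Ccl9, Xcl1, Ccl5 and Ccl6 at the right have the opposite order. The letter after each gene is its array set.

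The proximal promoters of Cxcl1, Cxcl2 and Cxcl10 carry kappaB-type letters, the kind of site that NF-kB binds in genes switched on by inflammatory signals. The bases before their annotated starts are shown because, among the risen ligands with a promoter sequence, these have such a match. Cxcl12, Cxcl9 and Cx3cl1 also rose and have a promoter in the table, with no match in the window. Ccl2, Ccl4, Ccl7, Cxcl5 and Cxcl16 rose as well but had no promoter sequence to search. The bases shown are RefSeq sequences of build GRCm38.p6, printed 5′ to 3′ on the gene's strand in lower case. Capitals mark GGG and TTCC with any 3 bases between them, on either strand. In Cxcl10 they also mark the interferon-response type, TTTC and TTTC with any 2 bases between them, here on the opposite strand. For Cxcl1 (chr5:90891125-90891244, plus strand) and Cxcl2 (chr5:90903779-90903898, plus strand) the last 120 bases are given, and for Cxcl10 (chr5:92348890-92349139, minus strand) the last 250.
Cxcl1: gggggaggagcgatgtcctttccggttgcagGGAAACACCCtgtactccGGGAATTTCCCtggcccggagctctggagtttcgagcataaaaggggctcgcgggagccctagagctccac
Cxcl2: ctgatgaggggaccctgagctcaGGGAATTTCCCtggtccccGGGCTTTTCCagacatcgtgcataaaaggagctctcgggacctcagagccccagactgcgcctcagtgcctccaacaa
Cxcl10: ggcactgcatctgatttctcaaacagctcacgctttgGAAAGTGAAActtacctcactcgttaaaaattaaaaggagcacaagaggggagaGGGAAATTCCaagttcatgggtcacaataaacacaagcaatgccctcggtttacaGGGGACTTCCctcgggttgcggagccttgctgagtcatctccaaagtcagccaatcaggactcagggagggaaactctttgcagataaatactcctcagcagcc
Within the run GGGAATTTCCC the motif matches on both strands, in frames that overlap. A kappaB-type match lay in 4.65% of all 32851 promoter windows of this length in the table and an interferon-response type match in 2.98%. Of the 36 member genes with a promoter in the table, the kappaB-type letters were found in 3 of 6 ligands that rose, none of 2 that fell and 2 of 7 that did not pass (Ccl1 and Ccl9). Among receptors they were found in Ccr6, which fell, and Ccr3, which did not pass. The interferon-response type was found in Cxcl10 and in Cxcl14, which lay below the filter. A match describes letters in this window and not a bound site. The motifs were chosen with earlier results of these data known, and whether these shares differ from that of all promoters was not tested.

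The neutrophil-attracting CXC chemokines, which signal through Cxcr2, rose in the enriched fraction, and their receptor did not pass the test. Cxcl1, a main mouse neutrophil attractant, stood at 272.3 and 303.8 on the depleted arrays and at 4347, 4265 and 4758 on the enriched arrays of set A. It rose 12.1-fold (log2 fold change 3.59 ± 0.09 SE, limma, adjusted p = 6.64e-08), and the other Cxcl1 probe set, at 152.4 and 190.1 against 4390.0, 4913 and 4884, rose 18.6-fold. Both probe sets separated the groups fully, and the enriched arrays differed little from one another. Cxcl2, made by activated macrophages and endothelium, measured 674.8 and 896.8 on the depleted and 2419, 2895 and 2933 on the enriched arrays, a 3.26-fold rise (limma, adjusted p = 1.84e-05). Cxcl5, a chemokine of epithelium and platelets, was near the bottom of the scale on the depleted arrays at 12.4 and 13.1 and reached 245.1, 205.9 and 297.8 on the enriched arrays. Its fitted rise was 3.32-fold (limma, adjusted p = 6.57e-06), a size that depends on the pseudocount because both depleted arrays were far below the filter. Cxcr2, the receptor these ligands share, lay at 298.8 and 282.2 against 311.2, 291.4 and 307.4, and the groups overlapped (log2 fold change 0.05, limma, adjusted p = 0.62). Cxcl1 and Cxcl2 are direct neighbours in the gene order of GRCm38.p6.

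The interferon-induced chemokines that draw activated T cells and NK cells through Cxcr3 also rose, and Cxcr3 fell. Cxcl10 stood at 134.3 and 130.8 on the depleted arrays and at 2706, 2601 and 2644 on the enriched arrays. This was a 12.4-fold rise (log2 fold change 3.63 ± 0.07 SE, limma, adjusted p = 3.40e-08) with a spread within each group that was a small fraction of the difference. Both depleted arrays were below the filter, so Cxcl10 was tested through the enriched arrays alone. Cxcl9, a chemokine induced mainly by interferon gamma, measured 183.5 and 198.6 against 452.0, 473.8 and 479.6 and rose 1.99-fold (limma, adjusted p = 9.64e-06). Cxcl11, the other chemokine of this family, lay below the filter on set C, at 39.5 and 32.7 on the depleted and 73.7, 78.3 and 82.3 on the enriched arrays. Its groups did not overlap, and without the filter it rose 1.47-fold (limma, adjusted p = 0.000142). Cxcr3, carried by activated T cells and NK cells, stood at 260.0 and 258.4 on the depleted arrays and at 209.5, 188.4 and 175.0 on the enriched arrays, a 1.25-fold fall (limma, adjusted p = 0.0101). That call was lost without depleted sample 1 (limma, adjusted p = 0.0931) or 2 (0.089), while all enriched arrays lay below both depleted ones.

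The homeostatic chemokine Cxcl12 rose together with its scavenging receptor Ackr3, while its signalling receptor Cxcr4 fell. Cxcl12 is a stromal product that holds Cxcr4-bearing lymphocytes and plasma cells in place. At the probe set standing for the gene it measured 387.0 and 446.8 on the depleted arrays and 1834, 2182 and 2556 on the enriched arrays, a 4.48-fold rise (log2 fold change 2.16 ± 0.13 SE, limma, adjusted p = 5.24e-06). A dimmer probe set of set A went from 38.7 and 38.8 to 903.1, 1264 and 1405, a 9.90-fold rise, and enriched sample 1 was the lowest enriched array on both. A further one, with no value on enriched sample 2, went from 36.2 and 45.3 to 1304 and 1877 and rose 12.8-fold. On set B another probe set moved only from 236.1 and 260.5 to 341.3 and 319.4, a 1.25-fold rise that also passed (limma, adjusted p = 0.003). The 2 probe sets with the larger fitted rises were below the filter on both depleted arrays and were tested through the enriched arrays alone. The 2 Cxcl12 probe sets above the filter in both groups rose 4.48- and 1.25-fold.

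Ackr3, known as a scavenger of CXCL12 and CXCL11 on stromal and endothelial cells, stood at 92.5 and 103.8 on the depleted arrays and at 1012, 1174 and 1242 on the enriched arrays. It rose 6.57-fold (log2 fold change 2.72 ± 0.09 SE, limma, adjusted p = 2.88e-07). Ackr3 was the sole receptor gene that rose at the probe set standing for the gene. Its depleted arrays were both below the filter, so it was tested through the enriched arrays alone. Cxcr4, the CXCL12 receptor of most leukocytes, measured 1184 and 1878 on the depleted arrays, which differed widely, and 282.0, 389.2 and 306.1 on the enriched arrays. It fell 3.84-fold (log2 fold change -1.94 ± 0.18 SE, limma, adjusted p = 6.01e-05), and the highest enriched array stayed well under the lower depleted one. Between the 2 receptors of CXCL12 the changes thus ran in opposite directions on the same arrays.

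Ccl2 and Ccl7, CC chemokines that recruit monocytes through Ccr2, rose, while Ccl8 and Ccl12 did not pass. Ccl2 (MCP-1) went from 65.9 and 72.1 on the depleted arrays to 1287, 1210.4 and 1358 on the enriched arrays, a fitted 8.71-fold rise (log2 fold change 3.12 ± 0.08 SE, limma, adjusted p = 6.64e-08). It was below the filter on both depleted arrays and was tested through the enriched arrays alone. Ccl7 (MCP-3) was at 206.8 and 206.5 against 541.4, 491.4 and 753.6 and rose 2.29-fold (limma, adjusted p = 0.00027), with enriched sample 3 well above the other enriched samples. Ccl12 stood at 339.8 and 326.9 against 402.7, 310.6 and 351.5, with overlapping groups. Ccl8 stood at 310.3 and 291.6 against 270.0, 280.6 and 284.5, a log2 fold change of -0.09 (limma, adjusted p = 0.349). In the gene order of GRCm38.p6, Ccl2, Ccl7, Ccl11, Ccl12, Ccl8 and Ccl1 follow one another with no other protein-coding gene between them, and the rise was seen in the first pair of this run. Ccr2, the receptor of inflammatory monocytes, lay below the filter at 132.5 and 163.1 on the depleted arrays and 60.7, 73.1 and 69.3 on the enriched arrays. Without the filter it fell 1.51-fold (limma, adjusted p = 0.000292), and its groups were apart.

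The inflammatory CC chemokines Ccl3, Ccl4 and Ccl5 went 3 different ways. Ccl4 (MIP-1 beta), made by activated macrophages and lymphocytes, measured 2324 and 2358 on the depleted and 4405, 4301 and 4075 on the enriched arrays, a 1.79-fold rise (limma, adjusted p = 4.73e-05). Ccl3 (MIP-1 alpha), which neighbours Ccl4 in the genome, stood at 1457 and 1145 against 1176, 1447 and 1363, with no separation (log2 fold change 0.03 ± 0.12 SE, limma, adjusted p = 0.861). Ccl5 (RANTES), a product of effector T cells and NK cells, went from 2999 and 2883 to 1438, 1670.2 and 2008 and fell 1.70-fold (limma, adjusted p = 0.00161). So of these 3 ligands 1 rose, 1 fell and 1 did not pass, and the enriched arrays spread more for Ccl5 than for Ccl4. Ccl6, a myeloid chemokine of rodents, measured 742.5 and 844.7 against 369.7, 328.1 and 343.0 and fell 2.02-fold (limma, adjusted p = 2.52e-05). Another Ccl6 probe set, on set C, missed the threshold (log2 fold change -0.09, limma, adjusted p = 0.271), although its enriched arrays were also all lower. Ccl9, the close relative of Ccl6, stood at 199.98 and 236.6 against 171.9, 179.9 and 175.7 and just missed the threshold (log2 fold change -0.21, limma, adjusted p = 0.0533). It passed with scaling to the median array (limma, adjusted p = 0.00871), under quantile normalization (0.0105) and with array weights (0.00806). Ccl5, Ccl9, Ccl6, Ccl3 and Ccl4 are also consecutive genes, and their changes differed in sign along the run. Ccr1 had 3 probe sets, all below the filter, with array values of 29.4 to 170.6. Without the filter both set B probe sets fell 1.10-fold (limma, adjusted p = 0.0306 and 0.0247), with groups apart, and the brighter one on set A did not pass (0.751).

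**Figure D2:**
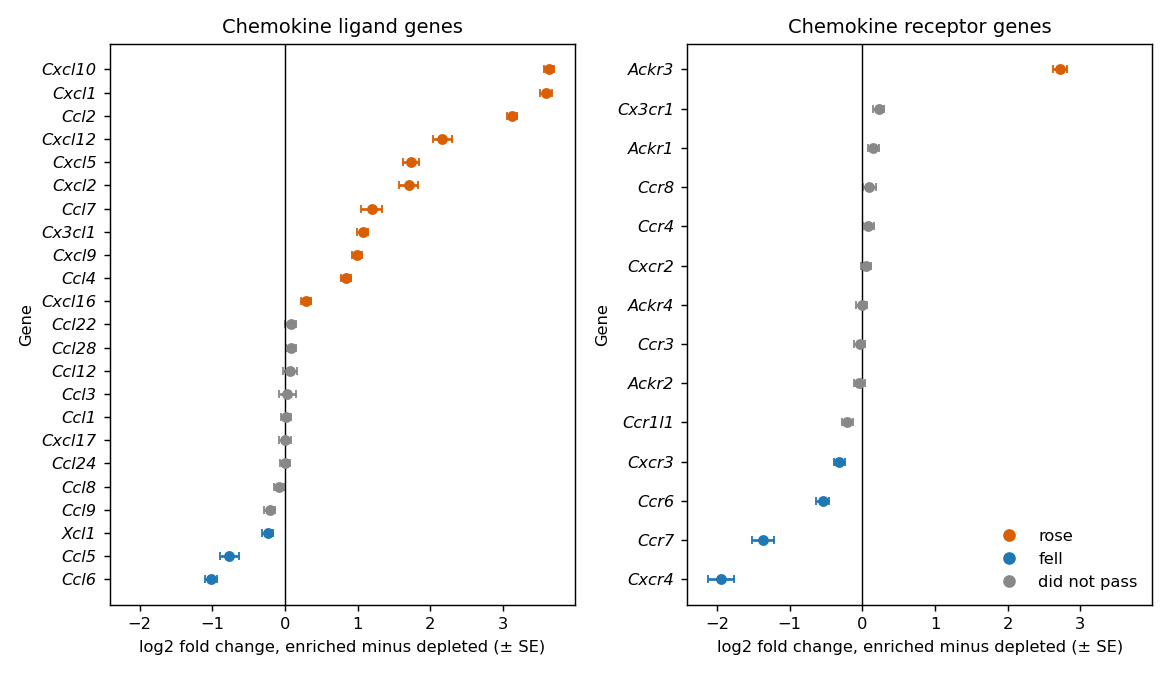
Log2 fold change of enriched over depleted arrays, with its standard error, for the 23 tested ligand genes (left) and the 14 tested receptor genes (right), ordered by size. Ligands reach from -1.02 (Ccl6) to 3.63 (Cxcl10), and among receptors Ackr3 at 2.72 stands apart from 4 falls down to -1.94 (Cxcr4).

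Both membrane-bound chemokines rose. Cx3cl1 (fractalkine), which endothelium and stroma display to Cx3cr1-bearing monocytes, went from 184.6 and 181.4 to 501.0, 445.3 and 500.7 on set A, a 2.10-fold rise (limma, adjusted p = 1.00e-05). Another Cx3cl1 probe set on set A, with no value on enriched sample 2, did not separate the groups, at 200.9 and 232.8 against 224.6 and 211.9. One more, on set B, lay below the filter, at 36.2 and 33.5 against 63.2 and 70.1, with groups apart. Its receptor Cx3cr1 stood at 475.5 and 499.2 on the depleted and 524.7, 611.4 and 602.3 on the enriched arrays of set C and missed the threshold (log2 fold change 0.22 ± 0.07 SE, limma, adjusted p = 0.0642). Cx3cr1 passed without enriched sample 1 (limma, adjusted p = 0.00793), with array weights (0.0203) and with adjustment over the 3 array sets (0.0421). On set A its other probe set did not pass (log2 fold change 0.08), though its enriched arrays were again all higher.

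Cxcl16, a scavenger receptor as well as a ligand, for the T cell receptor Cxcr6, was at 1514 and 1576 against 1820.0 and 2002 on set B and rose 1.22-fold (limma, adjusted p = 0.00786). Without depleted sample 1 it missed the threshold (limma, adjusted p = 0.0585). A dimmer probe set on set C, at 121.1 and 110.9 against 300.8, 368.7 and 396.6, rose 2.41-fold (limma, adjusted p = 3.56e-05), so the size of the Cxcl16 rise depends on the probe set. Xcl1 (lymphotactin), a product of NK cells and CD8+ T cells, stood at 673.6 and 682.6 against 604.9, 561.4 and 517.1 and fell 1.18-fold with little margin (limma, adjusted p = 0.0432). That call was lost in 7 of 15 alternative settings, among them leaving out depleted sample 1 (limma, adjusted p = 0.179) or 2 (0.212), enriched sample 2 (0.0717) or 3 (0.143), and the fit with the replicate number as a block (0.196). Its receptor Xcr1, of cross-presenting dendritic cells, lay below the filter, at 126.3 and 142.2 against 125.6, 115.4 and 122.7.

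**Figure D3:**
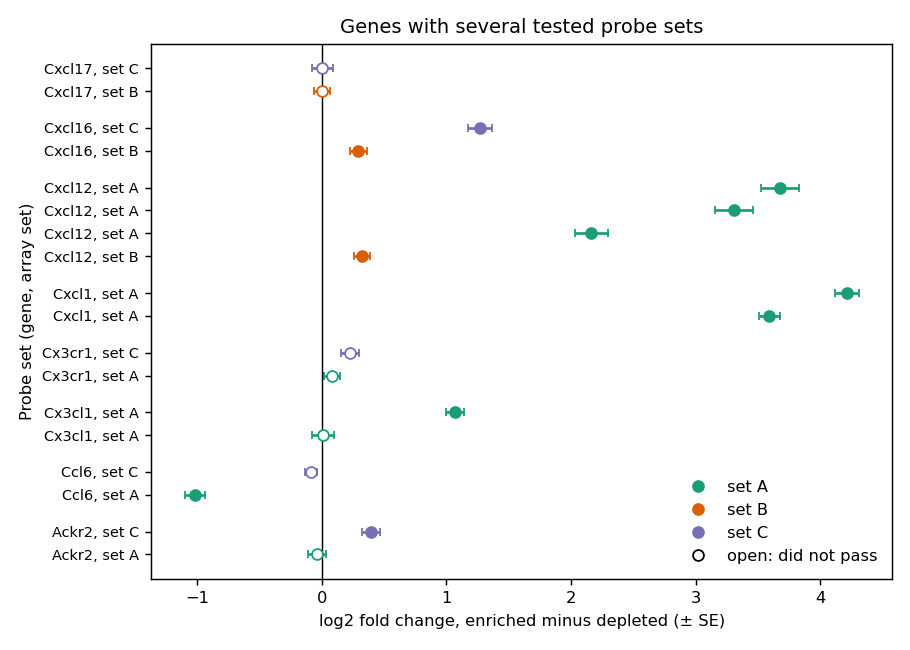
Log2 fold change with its standard error for every tested probe set of the 8 genes that had more than 1, coloured by array set, with open points for probe sets that did not pass. For 5 genes all probe sets had the same call, for Cx3cl1, Ccl6 and Ackr2 they differed, and for none did probe sets pass in opposite directions.

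The remaining ligands showed no change that passed. Ccl22, a dendritic cell product read by Ccr4, stood at 654.0 and 703.4 against 758.6, 705.1 and 700.0. Ccr4 itself was at 203.3 and 216.6 against 234.9, 210.1 and 238.7. In both, the enriched and depleted arrays overlapped. Ccl1 lay at 234.6 and 236.9 against 256.8, 221.9 and 238.2, and its receptor Ccr8, of Th2 and regulatory T cells, at 225.7 and 230.7 against 275.2, 217.2 and 259.9. Ccl24, an eosinophil attractant, measured 418.9 and 446.0 on the depleted and 412.2 and 455.1 on the enriched arrays of set B, and its receptor Ccr3 stood at 287.4 and 326.9 against 314.0, 272.0 and 304.1 on set A. Neither gene of these 3 pairs passed the test. Ccl28, a mucosal chemokine, was at 433.6 and 389.0 against 450.5 and 424.8, and Cxcl17, also mucosal, had log2 fold changes within 0.003 of 0 at both of its probe sets. The 9 tested ligands that did not pass had log2 fold changes of -0.21 to 0.08, Ccl9 being the lowest. Ccl11, Ccl17, Ccl25, Cxcl14 and Cxcl15 joined Cxcl11 below the filter. Of these 6 genes Cxcl11 alone passed when the filter was dropped.

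Further lymphocyte receptors fell with Cxcr4 and Cxcr3. Ccr7, which guides T cells and dendritic cells into T cell zones, stood at 1047 and 1379 on the depleted and at 371.1, 516.3 and 368.7 on the enriched arrays, a 2.57-fold fall (log2 fold change -1.36 ± 0.15 SE, limma, adjusted p = 0.000165). Ccr6, carried by B cells and some T cells, measured 1960 and 1970.2 on the depleted and 1311, 1434 and 1217 on the enriched arrays and fell 1.46-fold (limma, adjusted p = 0.0013). Both separated the groups fully. Ccr9, the receptor of gut-homing T cells, lay below the filter at both probe sets, with 141.6 and 148.1 on the depleted and 87.0 and 89.2 on the enriched arrays of set B. On set A it showed 83.4 and 86.9 on the depleted and 68.2, 66.0 and 54.1 on the enriched arrays. Without the filter the set B probe set fell 1.33-fold (limma, adjusted p = 0.000118) and the set A one 1.15-fold (0.0286). The receptor falls moved with the T, B and NK cell marker sums given above, and the part of those cells in them was not tested.

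**Figure D4:**
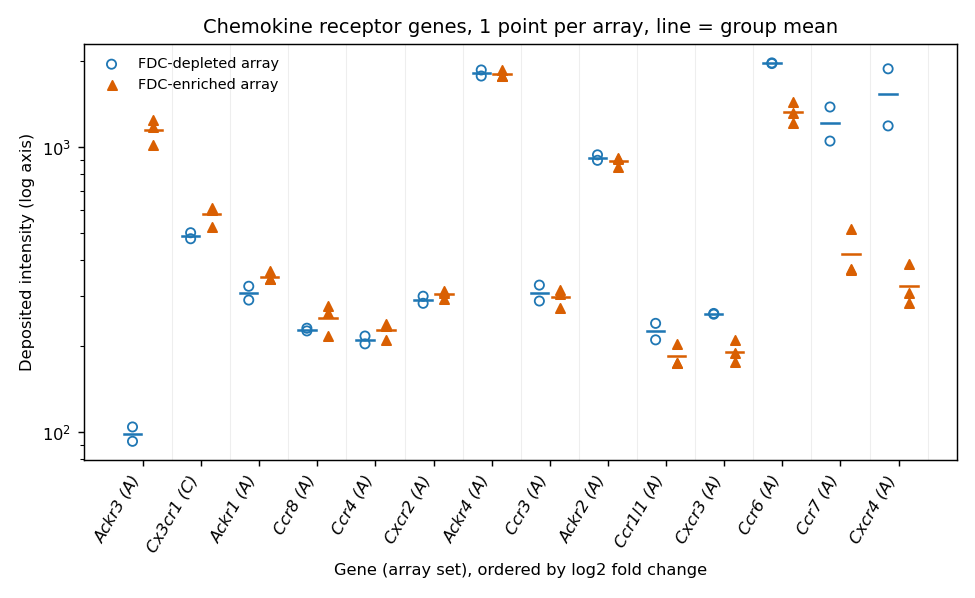
Deposited intensity (log axis) of the 14 tested chemokine receptor genes, with 1 point per array, open circles for FDC-depleted and triangles for FDC-enriched arrays, and a short line at the group mean. Ackr3 at the left rises from about the bottom of the plot, and Ccr1l1, Cxcr3, Ccr6, Ccr7 and Cxcr4 at the right have all enriched arrays below both depleted arrays.

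The other atypical receptors did not follow Ackr3. Ackr1, which binds inflammatory chemokines on venular endothelium and red cells, stood at 323.9 and 289.7 against 342.9, 343.2 and 365.2. Its enriched arrays were all higher, but the difference did not pass (log2 fold change 0.15 ± 0.07 SE, limma, adjusted p = 0.132), except with array weights (0.0104). Ackr2, a scavenger of inflammatory CC chemokines, was at 937.0 and 896.4 against 852.5, 914.2 and 904.1 on set A. On set C a dimmer Ackr2 probe set went from 65.4 and 84.1 to 117.0, 121.9 and 104.7 and rose 1.31-fold (limma, adjusted p = 0.00627). That probe set was tested through the enriched arrays alone, and the brighter one had overlapping groups. Ackr4, a scavenger of CCL19, CCL21 and CCL25, measured 1772 and 1861 against 1853, 1776 and 1777, with a log2 fold change of -0.01. Ccr1l1, a Ccr1-like gene, stood at 210.0 and 239.9 against 203.0, 173.5 and 174.2 and missed the threshold (limma, adjusted p = 0.0787). It passed with scaling to the median array (limma, adjusted p = 0.0142), under quantile normalization (0.0137), with array weights (0.00315) and without enriched sample 1 (0.0155).

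Of 29 ligand and receptor pairs listed, 11 had both genes tested. In 1 pair both rose (Cxcl12 with Ackr3), in 3 the ligand rose and the receptor fell (Cxcl12 with Cxcr4, Cxcl9 and Cxcl10 with Cxcr3), and in 4 the ligand rose and the receptor did not pass (Cxcl1, Cxcl2 and Cxcl5, all with Cxcr2, and Cx3cl1 with Cx3cr1). In the other 3 neither passed. Pairs share ligands, receptors and arrays, so they are not independent of one another, and for Cx3cl1 with Cx3cr1 and Ccl24 with Ccr3 the genes were measured on different array sets.

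**Figure D5:**
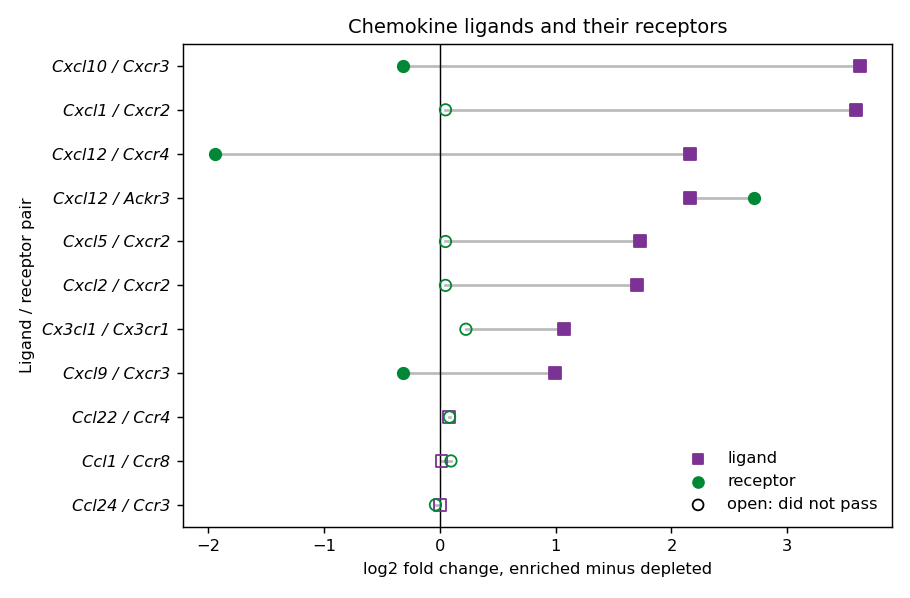
Log2 fold change of the ligand (squares) and of the receptor (circles) for the 11 pairs with both genes tested, with open symbols for genes that did not pass. The widest gap is that of Cxcl12 with Cxcr4, at 2.16 and -1.94, with Cxcl10 and Cxcr3 close behind at 3.63 and -0.32.

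Genes that process chemokines, carry their signals or drive their transcription included rises and falls. Of 56 such genes tested 16 (28.6%) rose, 15 (26.8%) fell and 25 did not pass, against 19.2% and 14.5% of all genes tested. Their median log2 fold change was 0.04, against 0.02 for all genes. Scaling every array to the median one gave 12 rises and 17 falls. By role, 5 of 15 G protein and arrestin genes rose and 4 fell, 3 of 16 effectors rose and 7 fell, 1 of 11 processing and presentation genes rose and 2 fell, and 5 of 11 transcription regulators rose and 2 fell. Ppbp, a platelet chemokine that acts on Cxcr2 and lies next to Cxcl5 in the gene order, rose 9.33-fold on set B (limma, adjusted p = 2.09e-08). It is itself one of the platelet markers that rose, as did Vwf (3.52-fold), Itga2b (2.76-fold), Gp1bb (1.43-fold) and Gp9 (1.22-fold). Ppbp, Vwf and Gp1bb were below the filter on both depleted arrays and were tested through the enriched arrays alone. Pf4, the other platelet chemokine listed, had no tested probe set. The part of platelets in the Ppbp and Cxcl5 values was not tested, nor was that of endothelium in the Vwf values. Rgs16, which shortens G protein signals from chemokine receptors, rose 4.33-fold. Dock2, the Rac activator that leukocytes need for chemotaxis, fell 4.95-fold on set C, and Pik3cd, the leukocyte PI3 kinase subunit, fell 3.61-fold. Rgs14 fell 3.22-fold and Grk6, a kinase that desensitises chemokine receptors, 2.63-fold.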

How the data were processed

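The authors deposited linear intensity values, 1 per probe set and array; the sources used here do not state the summarisation, background correction or scaling (not given in the sources used here). No deposited value was below 0, and no detection calls were used. Within a set, trimmed means differed between arrays by a factor of at most 1.08, so the deposited scale was kept. The tables held 12488, 12477 and 11934 probe sets on A, B and C. Enriched sample 2 lacked 893 values on set A, 2 of them of member probe sets, which were fitted on the other arrays. Of the non-control probe sets, 10833, 10581 and 7717 had 1 gene symbol, 396, 178 and 150 several and 1193, 1652 and 4001 none. Symbols were updated by Entrez identifier to the GRCm38.p6 gene table, which held all but 16, 31 and 40. The files name no genome build, so coordinates are those of the RefSeq promoter table.

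Each set was fitted alone on log2(intensity + the 20th percentile of its values: 88.6, 81.3 and 52.9) with limma 3.58.1 in R 4.3.3 (trended eBayes, two-sided, Benjamini-Hochberg within the set, threshold 0.05). Probe sets above the 40th percentile of the array (176.5 to 198.8 on A, 150.4 to 156.8 on B, 96.3 to 98.5 on C) on at least 2 arrays were tested, and the 66 controls of each set were left out. The brightest tested probe set stood for a gene, taken from the set where it ranked highest. The smallest p that an exact permutation test allows is 0.1 on sets A and C and 0.333 on B. Every tested member is named, with array values for those that passed and those in ligand and receptor pairs, as are the 6 pathway genes with the largest changes. The fit was tested on simulated data. Members, lists and motifs were chosen with earlier results of these data known. Alternatives covered scaling, pseudocount, filter, prior, weights, block, adjustment and left-out samples. The number of arrays limits the precision.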

Additional observations from a re-analysis of the deposited data

How the results depend on the processing

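Of 37 tested member genes 19 passed, and 16 of these kept direction and call, at the probe set standing for the gene, in every alternative run in which it was tested. The other 3 were Xcl1, Cxcl16 and Cxcr3, and of the 18 that did not pass, Ccl9, Ccr1l1, Ackr1 and Cx3cr1 passed in some, as given above. None of the 19 changed sign. Of the 16, Ccl2, Cxcl10, Cxcl5 and Ackr3 passed the main filter through enriched arrays alone. Between 10 and 12 ligands rose and 2 to 4 fell over all alternatives, and 3 to 6 receptors fell. Receptors that rose numbered 3 with array weights and 2 with adjustment over the 3 array sets, and 1 to 2 when a sample was left out. On set A, 2166 probe sets fell with scaling to the median array and 2170 with array weights. Leaving out 1 sample gave 730 to 1648 falls on A (730 without depleted sample 2 and 747 without depleted sample 1), 793 to 1294 on B (793 and 849) and 376 to 608 on C (376 without depleted sample 2). Rises on C ranged from 416 to 708 (416 without enriched sample 3 and 434 without depleted sample 2). Fits with 1 depleted sample, or 1 enriched sample on B, assume that it varies like the other group. With the replicate number as a block, 407 probe sets rose on C, and of the members Xcl1 alone lost its call; on B this fit leaves no residual degrees of freedom. The labels do not say that the numbers pair samples, and deviations of same-numbered samples correlated at 0.033 and 0.06 on A and at -0.312 and -0.149 on C. With 2 depleted samples their deviations mirror each other, so depleted sample 2 with enriched sample 1 gave -0.033 on A and 0.312 on C. These values therefore cannot settle whether samples are paired. No probe set with several symbols had only chemokine or receptor symbols, so that alternative gave no value. Dim probe sets, such as those of Ccr1, Ccr2 and Ccr9, are limited by their closeness to the floor of the scale.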
